A study of Caenorhabditis elegans with 8 samples.

Results

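The 6 genes described here are *nhr-49*, its known partner receptors *nhr-13*, *nhr-66*, *nhr-80* and *nhr-105*, and *mdt-15*. They were chosen by name, with earlier results of these data known, among 42048 gene symbols in the count table. All 6 were among the 14334 genes that passed the filter on low values. It required a library-scaled count, CPM, above 1 in at least 2 libraries. RNA was sequenced from whole L4 worms of 2 genotypes, each with and without tBOOH (tert-butyl hydroperoxide), an organic peroxide. The groups were *nhr-49*(*nr2041*) worms kept on tBOOH (7.5 mM, for 4 hr), *nhr-49*(*nr2041*) worms left untreated, wild-type N2 worms given the same exposure, and untreated wild-type N2 worms. The worms of all 4 groups grew on OP50 bacteria, and the authors backcrossed their mutants to N2 and treat *nr2041* as a null allele. Each group had 2 libraries, numbered 1 and 3 in the labels. The study describes the 2 as biological replicates. Unless stated otherwise, the p-values rest on the spread between replicates estimated from all 8 libraries together, with information shared across genes.

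Nuclear hormone receptors are transcription factors that bind DNA, often as dimers, and recruit coactivators. *C. elegans* has an unusually large family of them, most of which descend from an HNF4-like ancestor. NHR-49 is one of these, and it takes a place in worm fat metabolism that is compared with that of mammalian PPARα: it activates genes of fatty acid β-oxidation and fatty acid desaturation, and the response to fasting. MDT-15, the worm MED15 ortholog, is a subunit of Mediator, the complex that links transcription factors to RNA polymerase II, and it binds NHR-49 as a coactivator. The comparisons ask whether the mRNAs of the receptor, its partners and its coactivator themselves differed with tBOOH or with loss of *nhr-49*.

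Totals ranged from 4112931 to 4420382 counts in tBOOH-treated *nhr-49* libraries, from 2157766 to 2634620 in untreated *nhr-49* libraries, and from 4758499 to 5852727 in wild-type libraries. The floor used here, 3 counts in a library, was worth between 0.508 and 1.55 CPM depending on depth, and allows for counting error alone. Replicates correlated less in the mutant, with Pearson's r of log2 CPM across genes, which are not independent replicates, of 0.925 with tBOOH and 0.895 without, against 0.968 and 0.972 in wild-type. Markers of intestine, hypodermis, muscle, neurons, germline, oocytes and sperm were all detected, with no defining marker at 0 in all libraries. The summed level of the 3 yolk protein genes *vit-2*, *vit-5* and *vit-6*, made by the adult intestine, differed within each group. It was 65787 CPM in replicate 1 and 3494 CPM in replicate 3 of tBOOH-treated *nhr-49* worms, and 56688 and 770 CPM in the untreated *nhr-49* replicates. In wild-type it was 81533 and 39238 CPM with tBOOH and 46104 and 21139 CPM without. The 6 oocyte and embryo markers showed the same order, with 3096 against 334 CPM and 2164 against 385 CPM in the mutant pairs. The part of these differences between replicates in the values below was not tested, and in whole worms fewer cells of a type and less RNA per cell cannot be told apart.

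Of the 6 genes, *nhr-49* alone passed the test in any comparison, and only between genotypes with tBOOH. *nhr-49* (WBGene00003639, chromosome I) had 140 and 133 counts in tBOOH-treated mutants and 41 and 97 in untreated mutants, against 648 and 568 in tBOOH-treated wild-type worms and 298 and 345 in untreated wild-type worms. As CPM, here counts per library total after TMM scaling, these were 32.7 and 27.7 CPM in mutants with tBOOH, 21.2 and 36.1 CPM in untreated mutants, 109.6 and 108 CPM in wild-type with tBOOH, and 68.5 and 66.1 CPM in untreated wild-type. All 4 mutant libraries lay below all 4 wild-type libraries, the 2 mutant groups overlapped, and the 2 wild-type groups did not. The counts cover the gene as a whole, so that reads inside and outside the deleted part of *nr2041* cannot be told apart.

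With tBOOH, *nhr-49* mRNA averaged 30.2 ± 3.55 CPM in mutants and 109 ± 1.44 CPM in wild-type worms (SD, n = 2 each). It fell in mutants to 27.8% of wild-type, with a log2 fold change of -1.85 and an adjusted p of 0.000245 (exact test of edgeR, Benjamini-Hochberg over all genes tested). The DESeq2 estimate was -1.77 with an SE of 0.37. *nhr-49* was the 1 gene of the 6 called in this comparison, beside 2.30% of all genes tested. It is also the gene that *nr2041* deletes in part, so this call is no result about the other genes. How much of the difference lies in the deleted part cannot be told from these counts. The call was lost with the quasi-likelihood test of edgeR (adjusted p = 0.0564), without replicate 3 of tBOOH-treated *nhr-49* (log2 -1.66, adjusted p = 0.0567) and without replicate 3 of tBOOH-treated wild-type (log2 -1.74, adjusted p = 0.0575).

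Without tBOOH, *nhr-49* mRNA averaged 28.7 ± 10.5 CPM in mutants and 67.3 ± 1.73 CPM in wild-type worms (SD, n = 2 each). The log2 fold change was -1.22, or 43.0% of wild-type, and missed the threshold (adjusted p = 0.118 by the exact test of edgeR). None of the 6 genes was called between untreated genotypes, beside 0.998% of all genes. Without replicate 3 of untreated *nhr-49*, the library with the higher value, the log2 fold change was -1.66 with an adjusted p of 0.0301.

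In wild-type worms *nhr-49* mRNA was 109 ± 1.44 CPM with tBOOH and 67.3 ± 1.73 CPM without (SD, n = 2 each). The difference was 0.69 on the log2 scale, with a DESeq2 95% interval of -0.06 to 1.37, and replicates 1 and 3 taken singly gave 0.68 and 0.70. It was not called with dispersions from all 8 libraries (adjusted p = 0.347 by the exact test of edgeR), and it was called with dispersions from the 4 wild-type libraries (adjusted p = 0.0333). With the 4-library dispersions 2317 genes passed in this comparison, against 766 with those from all 8 libraries. In a separate experiment, the paper reports no induction of *nhr-49* mRNA by the tBOOH exposure described with its NHR-49::GFP blots. In mutants the tBOOH-treated and untreated values of *nhr-49* overlapped, at 30.2 ± 3.55 and 28.7 ± 10.5 CPM (SD, n = 2 each), and the log2 fold change was 0.06 (DESeq2 interval -0.70 to 0.83). The difference between the 2 responses was -0.62 on the log2 scale and was not called (adjusted p = 1, quasi-likelihood interaction of edgeR).

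**Figure D1:**
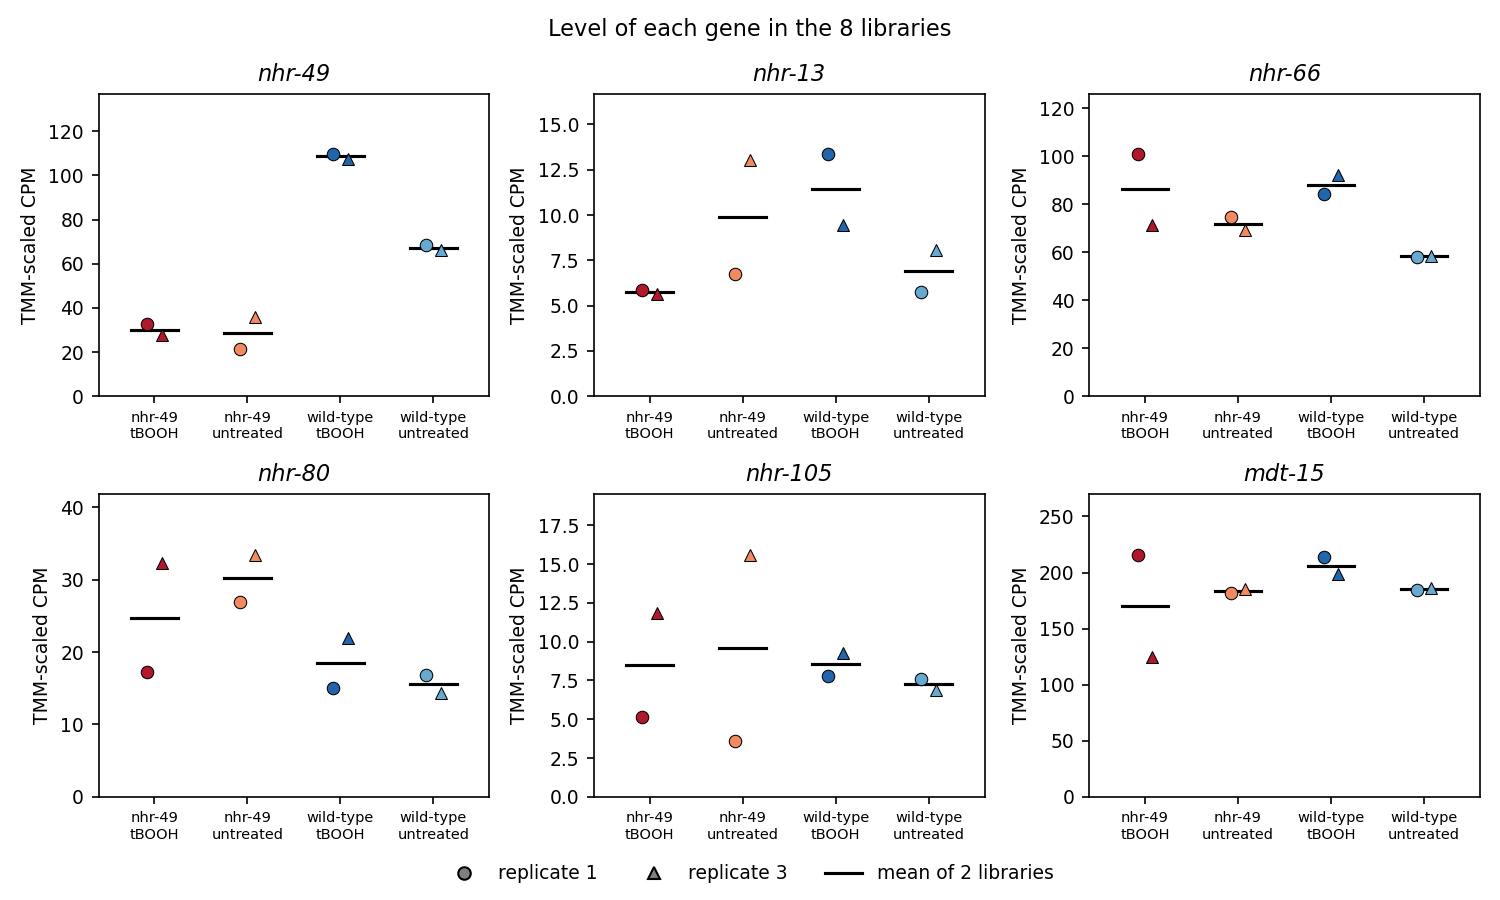
TMM-scaled CPM of each of the 6 genes in the 8 libraries, on a separate linear axis for each gene, with circles for replicate 1, triangles for replicate 3 and a line at the mean of the 2 libraries. The 4 mutant libraries of *nhr-49* sit between 21.2 and 36.1 CPM, below the 4 wild-type libraries, and the replicates of *nhr-105* lie far apart in both mutant groups.

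None of the 4 partner receptors was called in any comparison. *nhr-66* (WBGene00003656, chromosome IV) encodes a receptor that dimerizes with NHR-49 in the control of lipid metabolism. It had 432 and 343 counts in tBOOH-treated mutants and 144 and 186 in untreated mutants, against 498 and 486 in tBOOH-treated wild-type and 253 and 304 in untreated wild-type. As CPM these were 101 and 71.4 in mutants with tBOOH, 74.6 and 69.2 in untreated mutants, 84.3 and 92.1 in wild-type with tBOOH and 58.2 and 58.2 in untreated wild-type. The untreated wild-type libraries were the lowest of the 8. In wild-type the tBOOH libraries were above the untreated ones by 0.60 on the log2 scale (DESeq2 interval -0.07 to 1.199, adjusted p = 0.405 by the exact test of edgeR). In mutants the same difference was 0.26, with overlapping groups. Untreated mutants lay above untreated wild-type worms by 0.30 without overlap, and with tBOOH the genotypes overlapped, the log2 fold change being -0.03 with TMM and 0.04 with the size factors of DESeq2. *nhr-66* shares 130 exon bases with *serp-1.2* and the antisense RNA gene *anr-44* in the annotation, and since the counting is not stated to use strand, reads from these bases cannot be assigned.

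*nhr-80* (WBGene00003670, chromosome III) encodes a receptor known for activating the Δ9 desaturase genes and for the long life of worms without a germline. It had 74 and 155 counts in tBOOH-treated mutants, 52 and 90 in untreated mutants, 89 and 116 in tBOOH-treated wild-type and 73 and 75 in untreated wild-type. The CPM values were 17.3 and 32.3 in mutants with tBOOH, 26.9 and 33.5 in untreated mutants, 15.1 and 21.98 in wild-type with tBOOH and 16.8 and 14.4 in untreated wild-type. Both untreated mutant libraries lay above both untreated wild-type libraries. That difference, 30.2 ± 4.63 CPM in mutants and 15.6 ± 1.71 CPM in wild-type (SD, n = 2 each), was 0.96 on the log2 scale (DESeq2 interval 0.05 to 1.96) and failed the adjustment (p = 0.0428, adjusted p = 0.634, exact test of edgeR). It stayed between 0.79 and 1.103 when single libraries were left out. With tBOOH the genotypes overlapped at 24.8 ± 10.6 and 18.5 ± 4.89 CPM (SD, n = 2 each), or 0.42 on the log2 scale. The tBOOH differences of *nhr-80* were -0.29 in mutants and 0.25 in wild-type, both with overlapping groups.

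*nhr-13* (WBGene00003612, chromosome V), which also encodes an NHR-49 dimer partner, had 25 and 27 counts in tBOOH-treated mutants, 13 and 35 in untreated mutants, 79 and 50 in tBOOH-treated wild-type and 25 and 42 in untreated wild-type. As CPM these were 5.84 and 5.62 in mutants with tBOOH, 6.73 and 13.02 in untreated mutants, 13.4 and 9.47 in wild-type with tBOOH and 5.75 and 8.05 in untreated wild-type. The tBOOH libraries were the lower ones in mutants and the higher ones in wild-type, without overlap in either genotype. The difference with tBOOH was -0.80 on the log2 scale in mutants (DESeq2 interval -2.004 to 0.40) and 0.72 in wild-type (-0.44 to 1.84), with adjusted p-values of 0.604 and 0.553 by the exact test of edgeR. The difference between these responses was -1.52 (DESeq2 interval -3.16 to 0.16), with p = 0.0479 before and 1 after adjustment in the quasi-likelihood interaction of edgeR, which is not an exact test, and p = 0.0759 in DESeq2. With tBOOH, *nhr-13* averaged 5.73 ± 0.155 CPM in mutants and 11.4 ± 2.75 CPM in wild-type (SD, n = 2 each). That was a log2 fold change of -0.99 (DESeq2 interval -2.07 to 0.24) with an adjusted p of 0.571 (p = 0.0647, exact test of edgeR).

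*nhr-105* (WBGene00003695, chromosome IV), which encodes the remaining partner receptor, had 22 and 57 counts in tBOOH-treated mutants, 7 and 42 in untreated mutants, 46 and 49 in tBOOH-treated wild-type and 33 and 36 in untreated wild-type. The CPM values were 5.14 and 11.9 in mutants with tBOOH, 3.63 and 15.6 in untreated mutants, 7.78 and 9.28 in wild-type with tBOOH and 7.59 and 6.90 in untreated wild-type. The replicates of the mutant differed 2.31-fold with tBOOH and 4.31-fold without, replicate 3 being higher in both, and both wild-type groups lay inside the mutant ranges. In both mutant groups replicate 3 is the library with the low yolk and oocyte marker sums. The gene's dispersion, 0.205, was the highest of the 6, above the common dispersion of 0.131. No difference of *nhr-105* between groups was detectable, with log2 fold changes of -0.20 and 0.24 for tBOOH in mutants and in wild-type, 0.44 between untreated genotypes and 0.00 between treated ones. The DESeq2 intervals reached from -1.66 to 1.95 over these 4 comparisons. Without replicate 3 of untreated *nhr-49*, its difference between untreated genotypes was -0.99, and without replicate 1 it was 1.11.

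The coactivator gene *mdt-15* (WBGene00007016, chromosome III) varied least of the 6 over the 8 libraries, with an SD of 0.25 on the log2 scale against 0.29 for *nhr-66*, the next. It had 925 and 598 counts in tBOOH-treated mutants, 350 and 498 in untreated mutants, 1262 and 1049 in tBOOH-treated wild-type and 801 and 972 in untreated wild-type. The CPM values were 216 and 124 in mutants with tBOOH, 181 and 185 in untreated mutants, 214 and 199 in wild-type with tBOOH and 184 and 186 in untreated wild-type. The untreated libraries of both genotypes lay between 181 and 186 CPM, and replicate 3 of the tBOOH-treated mutants was the only library far from the rest. The log2 fold changes were -0.11 for tBOOH in mutants (DESeq2 interval -0.78 to 0.58), 0.15 for tBOOH in wild-type (-0.55 to 0.80), -0.02 between untreated genotypes (-0.65 to 0.70) and -0.28 between treated genotypes (-0.88 to 0.47). With RLE scaling the difference between untreated genotypes was 0.02. *mdt-15* shares 188 exon bases with *R12B2.13* and *R12B2.8* in the annotation, whose reads may have been split.

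**Figure D2:**
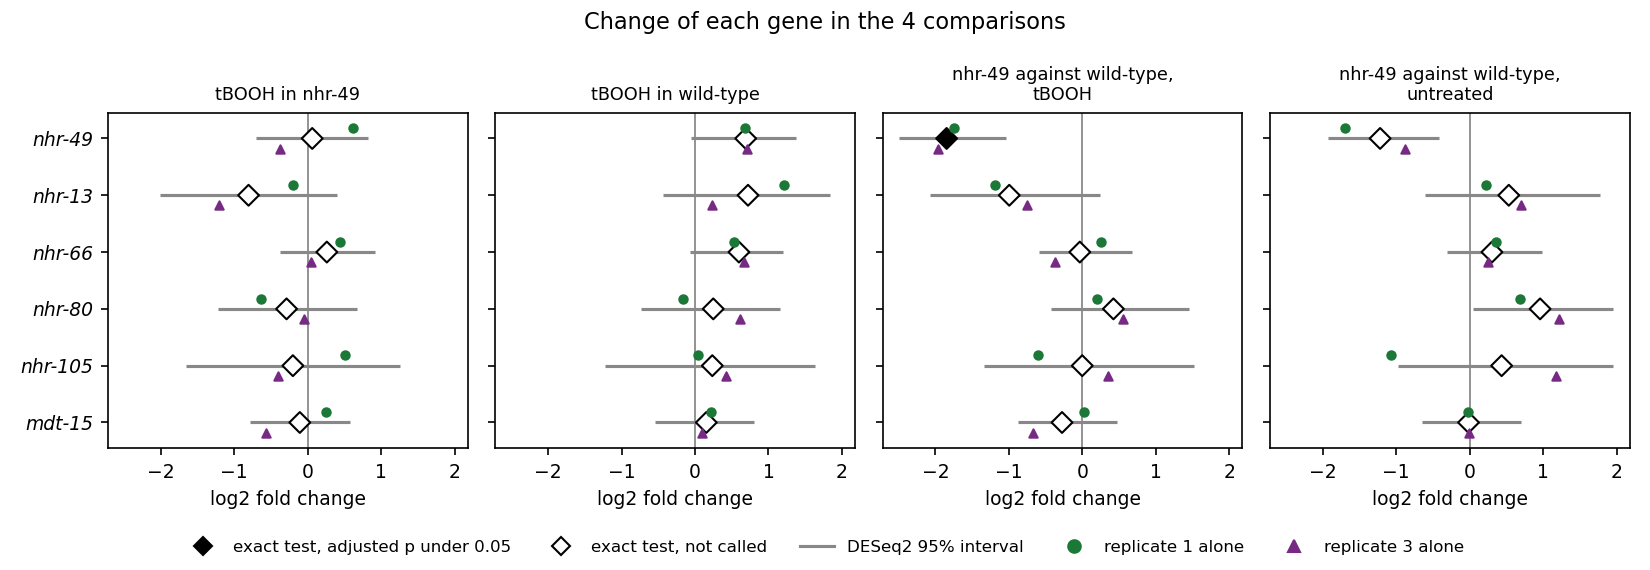
Log2 fold change of the 6 genes in the 4 comparisons, with diamonds for the exact test (filled where the adjusted p was under 0.05), grey lines for the DESeq2 95% interval, and circles and triangles for replicates 1 and 3 compared singly. The one filled diamond is *nhr-49* at -1.85 between tBOOH-treated genotypes, and the 2 points of *nhr-105* lie on opposite sides of 0 in 3 of the 4 panels.

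Counted over the 6 genes, the calls were few in each comparison. None was called for tBOOH in mutants, beside 4.63% of all genes, and none for tBOOH in wild-type, beside 5.34%. Before adjustment, 0 of the 6 had p under 0.05 in these 2 comparisons with the exact test of edgeR, and neither DESeq2 nor the quasi-likelihood test called any. For the interaction none was called, beside 0% of all genes by the quasi-likelihood test of edgeR. That test gave 1 of the 6 (*nhr-13*) and 523 of 14334 genes a p under 0.05 before adjustment, and DESeq2 called 16 genes, none of them among the 6. Between untreated genotypes *nhr-49* and *nhr-80* had p under 0.05 before adjustment with the exact test, as did 1084 of 14334 genes.

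In 5 of the 6 genes, all but *nhr-80*, both tBOOH-treated wild-type libraries lay above both untreated ones, where 32.3% of all genes did and 27.5% lay below. The number was also 5 with RLE scaling and with CPM not scaled by TMM, alternatives chosen after seeing the data. In mutants no gene of the 6 lay above without overlap, beside 19.6% of all genes, and 1 (*nhr-13*) lay below, beside 18.9%. Between untreated genotypes 2 lay higher in the mutant (*nhr-66* and *nhr-80*), beside 18.3%, and 1 lower (*nhr-49*), beside 20.7%. Between treated genotypes 0 lay higher, beside 20.4%, and 2 lower (*nhr-49* and *nhr-13*), beside 22.0%. The order of *nhr-13*, higher with tBOOH in wild-type and lower with tBOOH in the mutant, was shared by 1.17% of all genes. Comparisons that share a group share its libraries, so these counts are not independent of each other.

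Levels were compared between genes as TMM-scaled CPM per kilobase of merged exons. For *nhr-49* the full exon length was used in mutants too, not shortened for the deleted part of *nr2041*. In wild-type worms *nhr-49* and *mdt-15* stood above the other 4 genes in every library. The level of *nhr-49* was 50.9 ± 0.674 CPM per kilobase with tBOOH and 31.6 ± 0.811 without, and that of *mdt-15* was 48.2 ± 2.45 and 43.3 ± 0.327 (SD, n = 2 each). With tBOOH these 2 genes differed by little in wild-type, the ratio of *mdt-15* to *nhr-49* being 0.971 and 0.921, and without tBOOH it was 1.34 and 1.40. *nhr-66* followed at 18.2 ± 1.14 with tBOOH and 12.1 ± 0.00713 without, and *nhr-80* at 10.1 ± 2.67 and 8.49 ± 0.933 (SD, n = 2 each). *nhr-13*, at 8.05 ± 1.94 with tBOOH and 4.87 ± 1.145 without, and *nhr-105*, at 6.17 ± 0.767 and 5.24 ± 0.355 (SD, n = 2 each), came last. *nhr-80* and *nhr-13* overlapped in tBOOH-treated wild-type worms, as did *nhr-13* and *nhr-105* with and without tBOOH. In mutants the order below *mdt-15* was not resolved among *nhr-66*, *nhr-80* and *nhr-49*. There *mdt-15* averaged 39.8 ± 15.1 with tBOOH and 42.8 ± 0.655 without, *nhr-66* 17.8 ± 4.32 and 14.9 ± 0.790, *nhr-80* 13.5 ± 5.77 and 16.5 ± 2.52, and the reads left on *nhr-49* 14.2 ± 1.66 and 13.4 ± 4.92 CPM per kilobase (SD, n = 2 each). *nhr-13*, at 4.04 ± 0.109 with tBOOH and 6.96 ± 3.13 without, and *nhr-105*, at 6.15 ± 3.44 and 6.96 ± 6.14 (SD, n = 2 each), again came last by their means.

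The ratio of each partner to *nhr-49*, per kilobase, shows where that order differed. For *nhr-66* it was 0.847 to 1.55 in the 4 mutant libraries and 0.339 to 0.389 in the 4 wild-type libraries. For *nhr-80* it was 0.614 to 1.47 in mutants and 0.160 to 0.285 in wild-type. For *nhr-13* it was 0.269 to 0.543 in mutants and 0.126 to 0.183 in wild-type, and for *nhr-105* 0.243 to 0.668 and 0.110 to 0.171. The denominator of each ratio is *nhr-49*, which was lower in all mutant libraries. The mutant ratio rests on *nhr-49* reads whose transcripts carry the mutation.

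**Figure D3:**
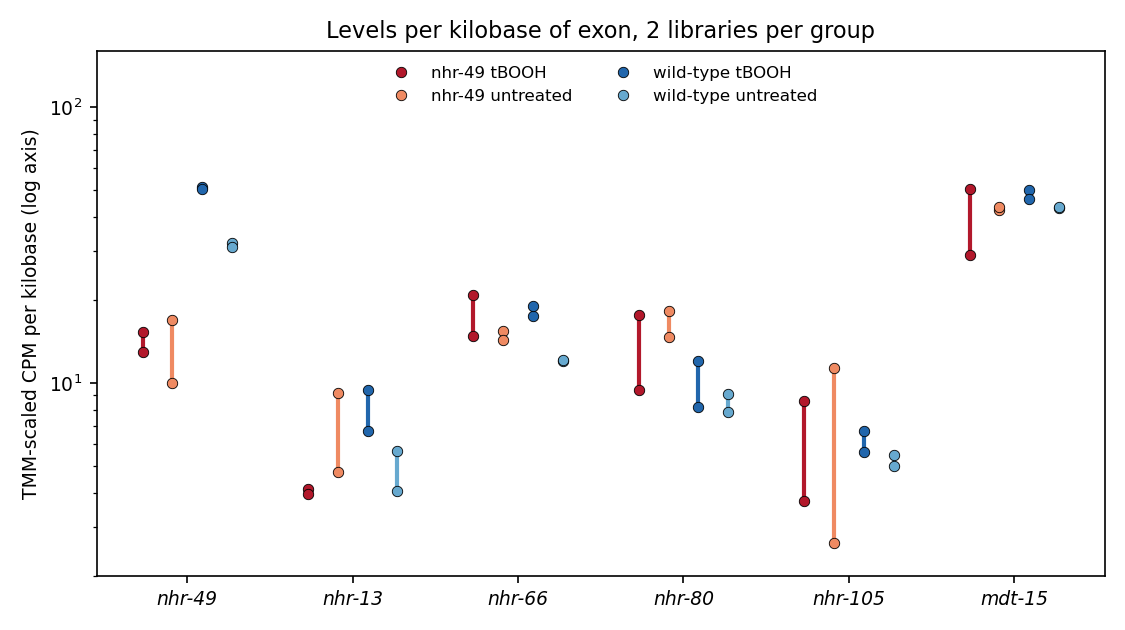
Level of each of the 6 genes as TMM-scaled CPM per kilobase of exon on a log axis, with a point for each library and a line joining the 2 libraries of a group. *mdt-15* and, in wild-type, *nhr-49* stand above the partner receptors, and in mutants *nhr-49* lies in the range of *nhr-66* and *nhr-80*.

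Among 187 *nhr* genes with a length in the annotation that passed the filter, *nhr-49* ranked 35 in tBOOH-treated mutants, 28 in untreated mutants, 2 in tBOOH-treated wild-type and 3 in untreated wild-type by mean level per kilobase. *nhr-27* ranked 1 in all 4 groups. *nhr-66* ranked between 17 and 26, *nhr-80* between 20 and 48, *nhr-13* between 55 and 111 and *nhr-105* between 60 and 80 over the 4 groups. The median *nhr* gene stood at 5.12 CPM per kilobase in tBOOH-treated mutants, 4.31 in untreated mutants, 4.36 in tBOOH-treated wild-type and 3.02 in untreated wild-type. *nhr-49* was thus among the most abundant receptor mRNAs of wild-type worms, while *nhr-13* and *nhr-105* stayed nearer to the median receptor.

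The genes whose profile over the 8 libraries was most like each of the 6 were found among 7603 genes by the root mean square difference of centred log2 CPM, which is a description with no test. For *nhr-49* these were *prx-6*, *smn-1* and *nxt-1*, with differences of 0.30, 0.30 and 0.32, where the median gene differed by 0.90. For *nhr-66* they were *smk-1*, *ufd-1* and *unc-37* (0.08, 0.09 and 0.10, median 0.48). For *mdt-15* they were *nfi-1*, *cdk-12* and *btf-1* (0.06, 0.07 and 0.07, median 0.44). *nhr-13* was nearest to *nhr-8*, *C34B2.5* and *F09E5.2* (0.18, 0.19 and 0.21), *nhr-80* to *C15B12.1*, *F54D5.3* and *his-37* (0.18, 0.20 and 0.22), and *nhr-105* to *ZK792.1*, *gro-1* and *R12C12.7* (0.19, 0.20 and 0.22). Within the 6, *nhr-66* and *mdt-15* were the nearest pair, at 0.28, and *nhr-49* and *nhr-80* the farthest apart, at 1.17.

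Target genes of the receptor complex give its readout in the same libraries. The Δ9 desaturases FAT-5, FAT-6 and FAT-7, which make monounsaturated fatty acids, are known targets of NHR-49, NHR-80 and MDT-15. With tBOOH all 3 of their genes fell in mutants relative to wild-type, beside 2.30% of all genes called in either direction. Without tBOOH *fat-5* and *fat-7* fell, beside 0.998%. The list was chosen with earlier results of these data known, so these shares are not independent support. *fat-7* had 1 and 0 counts in tBOOH-treated mutants and 0 and 0 in untreated mutants, against 250 and 208 in tBOOH-treated wild-type and 218 and 257 in untreated wild-type. Between untreated genotypes it was at least 37.2-fold lower in mutants, computed against a floor of 3 counts per library (adjusted p = 8.94e-21, exact test of edgeR). *fat-5* had 0 and 4 counts in tBOOH-treated mutants and 0 and 3 in untreated mutants, against 254 and 323, and 228 and 344, in wild-type with and without tBOOH. Both genes were thus at or near the floor in every mutant library. There *nhr-80* and *mdt-15* had reads at levels that overlapped those of wild-type or, for *nhr-80* without tBOOH, lay above them, a difference that was not called. These are mRNA levels, protein was not measured here, and a link between them and the desaturase genes was not tested.

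*fat-6* was retained at an intermediate level. It averaged 38.0 ± 5.74 CPM in tBOOH-treated mutants and 193 ± 59.7 CPM in tBOOH-treated wild-type (SD, n = 2 each), or -2.35 on the log2 scale (adjusted p = 7.79e-05 by the exact test of edgeR, 0.0551 by its quasi-likelihood test). Without tBOOH the values were 92.6 ± 35.8 CPM in mutants and 232 ± 68.5 CPM in wild-type (SD, n = 2 each), or -1.32 on the log2 scale, which was not called (adjusted p = 0.175). For tBOOH the exact test of edgeR called none of the 3 desaturase genes in either genotype. In mutants *fat-6* had p = 0.00453 before and 0.0781 after adjustment by that exact test and was called by DESeq2 (adjusted p = 0.046). Their median log2 fold change between genotypes was -6.82 with tBOOH and -6.46 without, or -5.22 without tBOOH with *fat-7* at its bound, where the medians of all genes were -0.05 and -0.03.

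The next list held 7 genes, also chosen with earlier results of these data known. They were *acs-2*, *cpt-5*, *ech-1*, *hacd-1* and *acdh-2* of fatty acid activation and β-oxidation, and the lipid-binding protein genes *lbp-7* and *lbp-8*. Of these 7, 3 fell in mutants with tBOOH, beside 2.30% of all genes called in either direction. Without tBOOH 2 fell, beside 0.998%, and none rose in either comparison. *acs-2*, an acyl-CoA synthetase gene and a standard NHR-49 target, had 2 and 5 counts in tBOOH-treated mutants and 0 and 0 in untreated mutants, against 679 and 327 in tBOOH-treated wild-type and 316 and 200 in untreated wild-type. Without tBOOH it was at least 41.6-fold lower in mutants (adjusted p = 1.1e-14, exact test of edgeR). *cpt-5*, a carnitine palmitoyltransferase gene, had 0 and 1 counts in each mutant group, against 71 and 57, and 44 and 120, in wild-type with and without tBOOH, and was called in both comparisons (adjusted p = 1.46e-07 with tBOOH and 1.2e-06 without, where the quasi-likelihood test gave 0.0765). *acdh-2*, an acyl-CoA dehydrogenase gene, had 34 and 24 counts in tBOOH-treated mutants and 226 and 86 in tBOOH-treated wild-type (adjusted p = 0.0307 by the exact test, 0.219 by the quasi-likelihood test). The list's median between genotypes was -2.08 with tBOOH (-2.01 without *lbp-8*, whose mutant libraries were at 0) and -1.69 without.

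With tBOOH, 3 of these 7 genes fell in mutants, beside 4.63% of all genes called in either direction, and 1 in wild-type, beside 5.34%. In mutants *hacd-1*, a hydroxyacyl-CoA dehydrogenase gene, had 193 and 171 counts with tBOOH and 232 and 210 without, which is 45.1 and 35.6 CPM against 120.2 and 78.1 CPM (log2 -1.29, adjusted p = 0.024). *acdh-2* was at 7.94 and 4.99 CPM with tBOOH against 17.6 and 35.0 CPM in untreated mutants (log2 -2.03, adjusted p = 0.0281). *lbp-8*, which encodes a lysosomal lipid-binding protein known for signaling to NHR-49 and NHR-80, fell in both genotypes. It had 0 and 0 counts in tBOOH-treated mutants and 5 and 14 in untreated mutants, at least 5.89-fold lower (adjusted p = 0.00214). In wild-type it had 3 and 0 counts with tBOOH and 70 and 66 without (adjusted p = 1.63e-08). These are adjusted p-values of the exact test of edgeR, and with the quasi-likelihood test the 3 calls in mutants were lost (0.0854, 0.119 and 0.0649). With tBOOH the list's median was -1.29 on the log2 scale in mutants, or -1.32 with *lbp-8* at its bound and *acs-2* left out, and -0.54 in wild-type, against medians of all genes of 0.04 and 0.05.

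The study names 5 stress-response genes as NHR-49-dependent, partly from these libraries, so that their direction here is not independent evidence. With tBOOH 3 of 5 rose in mutants, beside 4.63% of all genes called in either direction, and 4 of 5 in wild-type, beside 5.34%. *fmo-2*, a flavin-containing monooxygenase gene, had no count in any mutant library and averaged 205 ± 94.8 CPM with tBOOH against 1.21 ± 0.895 CPM without in wild-type (SD, n = 2 each; log2 7.42, adjusted p = 5.69e-20, exact test of edgeR). It was at least 309-fold lower in tBOOH-treated mutants than in tBOOH-treated wild-type (adjusted p = 3.4e-27). *sodh-1*, an alcohol dehydrogenase gene, rose in both genotypes, to 16.1 ± 0.687 CPM against 2.37 ± 1.77 CPM in untreated mutants, and to 166 ± 55.4 CPM against 13.8 ± 3.85 CPM in untreated wild-type (SD, n = 2 each). The log2 fold changes were 2.83 (adjusted p = 0.000433) and 3.58 (adjusted p = 2.03e-10), and *sodh-1* was lower in mutants with tBOOH (log2 -3.36, adjusted p = 4.15e-09) and without (log2 -2.61, adjusted p = 0.00386, 0.186 by the quasi-likelihood test).

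*icl-1*, the glyoxylate cycle gene, was 752 ± 124 CPM in tBOOH-treated mutants and 171 ± 143 CPM in untreated mutants, against 2056 ± 100.2 and 678 ± 115 CPM in wild-type with and without tBOOH (SD, n = 2 each). Its tBOOH response was called in mutants (log2 2.14, adjusted p = 0.0144, 0.0929 by the quasi-likelihood test) and not in wild-type (log2 1.60, adjusted p = 0.0971 by the exact test, 0.0352 by DESeq2). The interaction, 0.54, was not called. *K05B2.4* was 9.19 ± 4.08 and 1.26 ± 0.320 CPM in mutants with and without tBOOH, and 18.7 ± 2.55 and 3.45 ± 0.00117 CPM in wild-type (SD, n = 2 each). It rose with tBOOH in mutants (log2 2.80, adjusted p = 0.00526, 0.0551 by the quasi-likelihood test) and in wild-type (log2 2.43, adjusted p = 0.000813). *nlp-25*, a neuropeptide-like protein gene, had no count in mutants and averaged 3.61 ± 3.20 CPM with tBOOH and 0.115 ± 0.163 CPM without in wild-type (SD, n = 2 each). It was called in wild-type (adjusted p = 0.0443) and was at least 5.45-fold lower in tBOOH-treated mutants (adjusted p = 0.0307), and both calls were lost with the quasi-likelihood test (0.175 and 0.273). With tBOOH the 5 genes had a median log2 fold change of 2.14 in mutants, or 2.80 without the 2 genes at 0, and 3.58 in wild-type. Between genotypes it was -3.36 with tBOOH, or -2.45 with *fmo-2* and *nlp-25* at their bounds, and -2.01 without tBOOH, or -1.99 without these 2 genes. Of the 5 genes, 3 were called lower in mutants with tBOOH, beside 2.30% of all genes, and 1 without, beside 0.998%. The exact test of edgeR called *icl-1* in neither (adjusted p = 0.266 with tBOOH, 0.0801 without), nor *K05B2.4* (0.507 and 0.796). DESeq2 called *icl-1* without tBOOH (adjusted p = 0.0173).

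**Figure D4:**
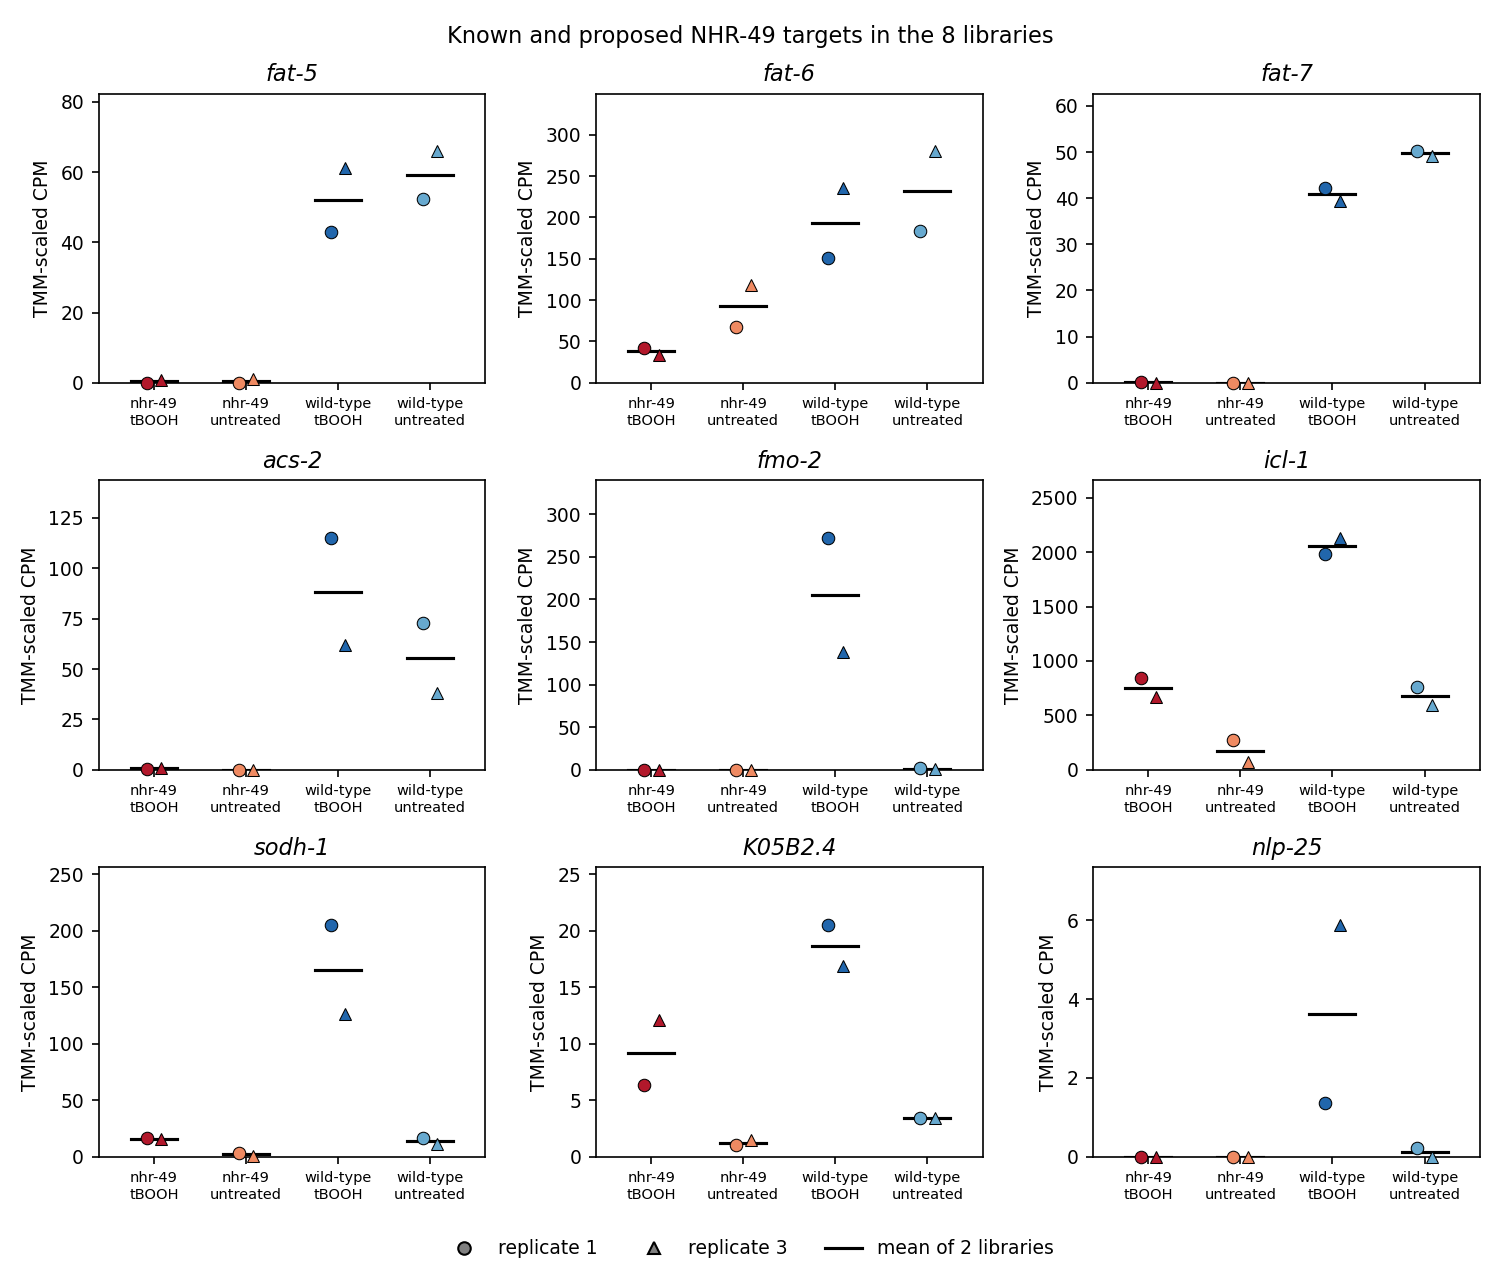
TMM-scaled CPM of 9 target genes in the 8 libraries on separate linear axes, with circles for replicate 1, triangles for replicate 3 and a line at the mean of the 2 libraries. *fat-5*, *fat-7*, *acs-2*, *fmo-2* and *nlp-25* lie at or near 0 in all 4 mutant libraries, while *fat-6*, *icl-1*, *sodh-1* and *K05B2.4* keep reads in the mutant.

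*mdt-15* was compared with other genes listed as Mediator subunits to see whether its small differences were particular to it. Whether each listed gene, *mdt-28* among them, encodes a Mediator subunit was not checked here. Of 29 other genes listed, 28 were found and tested. None was called in any comparison by the exact or quasi-likelihood test of edgeR or by DESeq2. Before adjustment, 1 of 28 had p under 0.05 for tBOOH in wild-type and in each comparison of genotypes, and 0 for tBOOH in mutants. Their median log2 fold changes were 0.25 for tBOOH in mutants, 0.28 for tBOOH in wild-type, -0.28 between treated genotypes and -0.14 between untreated genotypes, where *mdt-15* had -0.11, 0.15, -0.28 and -0.02. *mdt-15* lay inside the range of the other listed genes in all 4 comparisons. By level per kilobase *mdt-15* ranked 5 of 29 in tBOOH-treated mutants, 3 in untreated mutants, 4 in tBOOH-treated wild-type and 3 in untreated wild-type. The gene with the symbol *mdt-28* was first in each, at 163 to 246 CPM per kilobase. The median listed gene was at 21.5, 18.2, 27.7 and 18.8 CPM per kilobase in the same groups.

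**Figure D5:**
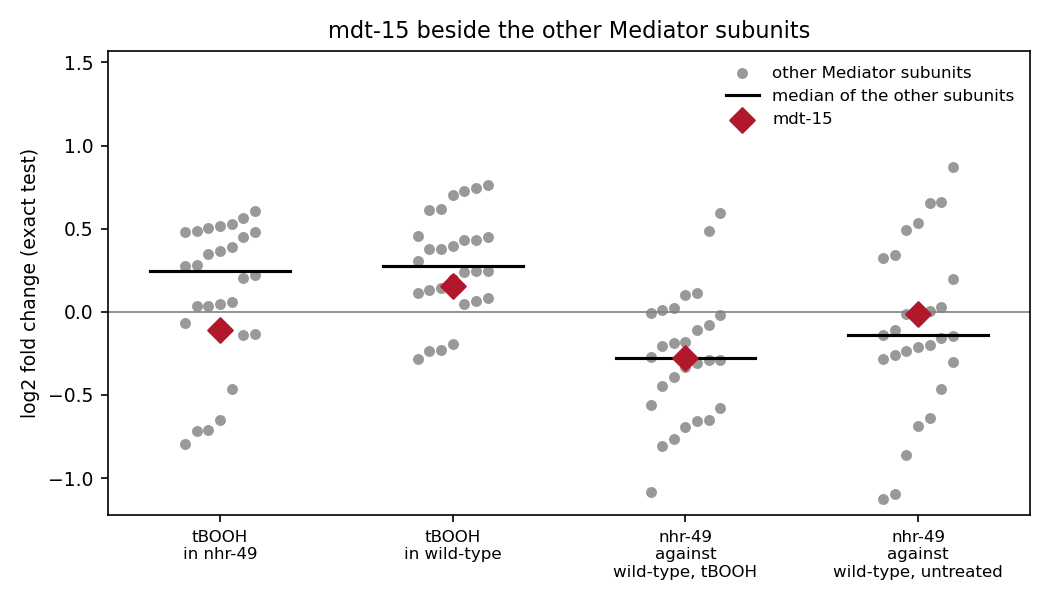
Log2 fold change by the exact test of the 28 other genes listed as Mediator subunits (grey points, spread sideways to be seen) and their median (line) with *mdt-15* (diamond) in the 4 comparisons. The diamond sits among the grey points throughout, between -0.28 and 0.15.

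The last lists held factors near the receptor complex. Of 18 transcription factors that bind MDT-15 and that the study examined by RNAi, 17 passed the filter. Only *nhr-114* met the rule for naming genes. It had 21.95 and 17.7 CPM in tBOOH-treated mutants and 40.4 and 67.3 CPM in untreated mutants, against 38.7 and 32.6 CPM in tBOOH-treated wild-type and 139 and 171 CPM in untreated wild-type. It fell with tBOOH in mutants (log2 -1.45, adjusted p = 0.0149) and in wild-type (log2 -2.12, adjusted p = 2.2e-05), and was lower in untreated mutants than in untreated wild-type (log2 -1.52, adjusted p = 0.0171, exact test of edgeR). The calls in mutants and between untreated genotypes were lost with the quasi-likelihood test (0.0713 and 0.193). *npax-2*, named because it was the only other call and so chosen after its values were seen, had 7 and 3 counts with tBOOH and 16 and 36 without in wild-type (adjusted p = 0.0153, 0.0981 by the quasi-likelihood test). The medians of the 17 factors were 0.06 for tBOOH in mutants, 0.31 for tBOOH in wild-type, 0.01 between treated and 0.13 between untreated genotypes. None of 9 parallel or upstream factors discussed by the study, among them *hlh-30*, *hif-1*, *daf-16* and *nhr-62*, was called in any comparison by the exact test of edgeR, with 2 having p under 0.05 before adjustment for tBOOH in each genotype, 0 between treated and 1 between untreated genotypes, and medians of 0.39, 0.41, -0.03 and 0.22 in the same order. DESeq2 called 1 of them, the insulin receptor gene *daf-2*, for tBOOH in wild-type (adjusted p = 0.046, against 0.112 by the exact test), which is named after its value was seen. The intestine markers, for the tissue where NHR-49 is known to act, summed to 7323 and 6322 CPM in tBOOH-treated mutants and 10925 and 8428 CPM in untreated mutants, against 5476 and 4137 CPM in tBOOH-treated wild-type and 9292 and 8443 CPM in untreated wild-type. These sums were lower with tBOOH in both genotypes. Of the 7 intestine markers, 3 fell with tBOOH in mutants and none rose, beside 4.63% of all genes called in either direction. In wild-type 1 fell and 1 rose, beside 5.34%. The hypodermis markers summed to 1757 and 1536 CPM in tBOOH-treated mutants and 2052 and 687 CPM in untreated mutants, against 981 and 1400 CPM in tBOOH-treated wild-type and 2509 and 2102 CPM in untreated wild-type. Of these 6 markers none was called with tBOOH in mutants, beside 4.63% of all genes, and 3 fell in wild-type, beside 5.34%. Their medians were -0.36 and -1.36 on the log2 scale. Between treated genotypes 2 of them were higher in mutants, beside 2.30% of all genes called in either direction. Of the 5 body wall muscle markers none was called in these comparisons by the exact test of edgeR, and their sums were 13877 and 11736 CPM with tBOOH against 16587 and 17226 CPM in untreated mutants, and 12418 and 12469 CPM with tBOOH against 18215 and 17858 CPM in untreated wild-type. The part of these markers in the differences was not tested.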

How the data were processed

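The authors aligned reads to ce10 with STAR and deposited whole-number counts per gene symbol. The counting program, annotation and use of strand are not given in the sources used here. The deposited table of normalized CPM was not used. All 8 count columns were mapped to samples by name. The software was DESeq2 1.42.0 and edgeR 4.0.16 (with limma 3.58.1) under R 4.3.3. TMM factors came from all genes, and a gene was kept if 2 or more libraries exceeded 1 CPM. Groups were compared by edgeR with its exact test, as in the study's methods, with dispersions per gene from all 8 libraries and calls at an adjusted p under 0.05. The interaction was tested by quasi-likelihood with 4 residual degrees of freedom. The scripts were tested on simulated data. SEs and intervals are from DESeq2. Profiles used log2 (CPM + 0.5) and genes with a mean of at least 50 counts. Gene identifiers, lengths and overlaps came from WBcel235, another build than ce10, so no coordinates are given. Alternatives were the quasi-likelihood test, DESeq2, RLE scaling, a replicate block, no filter, a filter of 10 counts in 2 libraries, dispersions taken only from the 4 libraries of a comparison, and leaving out each library. The members and lists were chosen with earlier results of these data known. Named genes are the 6 members, the 9 targets plotted, up to 4 called genes per list and comparison with 20 or more counts in both libraries of the higher group, and the 3 most similar genes per member.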

Additional observations from a re-analysis of the deposited data

Results flagged for a closer look

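The tBOOH difference of *nhr-13* had opposite directions in the 2 genotypes, without overlap between groups. This order was shared by 1.17% of all genes. Both tBOOH-treated libraries lay below both untreated ones in *nhr-49* worms (5.84 and 5.62 CPM against 6.73 and 13.02 CPM) and above them in wild-type (13.4 and 9.47 CPM against 5.75 and 8.05 CPM). The difference between the responses, *nhr-49* minus wild-type, was -1.52 on the log2 scale. Replicates 1 and 3 taken singly gave tBOOH differences of -0.21 and -1.21 in mutants and 1.22 and 0.24 in wild-type. The quasi-likelihood interaction of *nhr-13* in edgeR, not an exact test, had p = 0.0479 before and 1 after adjustment. Before adjustment 523 of 14334 genes had p under 0.05 in that test. Leaving out single libraries gave an interaction of -1.90 to -0.95.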

How the results depend on the processing

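Of the 4 comparisons and the interaction, the number of the 6 genes called changed in 3 comparisons. It was 1 instead of 0 for tBOOH in wild-type with dispersions from the 4 libraries compared (*nhr-49*, 0.69), and 0 instead of 1 between treated genotypes with the quasi-likelihood test. Leaving out single libraries gave 0 to 1 between treated genotypes and 0 to 1 between untreated genotypes, and 0 throughout for tBOOH in either genotype and for the interaction. Some differences near 0 changed sign. Between treated genotypes *nhr-66* was 0.0434 with DESeq2 and 0.0423 with RLE, and *nhr-105* was 0.00021 with the quasi-likelihood test, 0.0904 with DESeq2, 0.0893 with RLE and 0.00031 with dispersions from the 4 libraries. Between untreated genotypes *mdt-15* was 0.0242 with DESeq2 and 0.0232 with RLE. None of these was called. Leaving out single libraries, the log2 differences with tBOOH in mutants ranged from -0.26 to 0.51 for *nhr-49*, -1.18 to -0.23 for *nhr-13*, -0.81 to 0.21 for *nhr-80*, -0.94 to 1.23 for *nhr-105* and -0.44 to 0.24 for *mdt-15*, and in wild-type from 0.45 to 0.99 for *nhr-13* and -0.12 to 0.50 for *nhr-80*. Between untreated genotypes they ranged from -0.0412 to 0.91 for *nhr-13* and -0.99 to 1.11 for *nhr-105*. Between treated genotypes they ranged from -0.11 to 0.27 for *nhr-66*, -0.0195 to 0.998 for *nhr-80*, -0.65 to 0.67 for *nhr-105* and -0.53 to 0.14 for *mdt-15*. The interaction ranged from -0.98 to 0.042 for *nhr-80*, -1.11 to 0.99 for *nhr-105* and -0.51 to 0.16 for *mdt-15*. The causes were not tested. With a replicate block (quasi-likelihood fit) the numbers called were 0 for tBOOH in mutants, 0 in wild-type, 0 between untreated and 1 between treated genotypes, where *nhr-49* was -1.84 with an adjusted p of 0.0273. The labels do not say what a replicate number marks, and the correlation of deviations between same-numbered libraries ranged from -0.04 to 0.32 over the 6 pairs of groups and was between 0.197 and 0.323 in 4 of them. Replicate 1 also had the higher yolk and oocyte marker sums in all 4 groups. With 2 numbers, whether these pair the libraries was not settled. Over all genes the calls were 664, 766, 143 and 329 for tBOOH in mutants, tBOOH in wild-type, untreated and treated genotypes with the exact test, 218, 233, 20 and 51 with the quasi-likelihood test, 465, 624, 57 and 162 with the replicate block, and 258, 2317, 148 and 329 with dispersions from the 4 libraries compared. Leaving out single libraries these numbers ranged from 338 to 1118, 153 to 1121, 32 to 668 and 79 to 794. The interaction called 0 genes over all, and 113 with no filter. By the longest transcript the level of *nhr-66* was 16.1 CPM per kilobase in untreated mutants, 19.7 in tBOOH-treated and 13.02 in untreated wild-type worms. *nhr-105* and *nhr-13* had 7 to 57 counts per mutant library, and *nhr-105* also had the widest replicate spread of the 6, with a dispersion of 0.205.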
